A study of Mus musculus with 6 samples.

Results

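The genes described here are 10 members of a ciliary and signalling route, taken by symbol from the 24421 gene rows of the count table: Evc, Evc2, Iqce and Efcab7 of the EVC complex, the ciliary base gene Dzip1l, and the hedgehog transducers Smo, Ptch1, Sufu, Gli2 and Gli3. Evc, Evc2 and Dzip1l were picked because they were almost silent in wild type cells and strongly higher in the mutant, with no numerical limit stated, so their difference between genotypes is given as a description with no test. The other 7 were listed by role. The mutant mice were ASXL1-MT-KI animals, in which a mutant form of the chromatin regulator ASXL1 had been knocked in, and the controls were their wild type littermates, all of strain C57BL/6 and 8 to 12 weeks of age. RNA came from bone marrow LK cells, sorted as lineage-negative and c-Kit-positive, in 3 libraries per genotype. The sources used here do not give the mutation carried, the locus and promoter that drive it, any Cre line or the number of animals behind a library. The study's design text calls the 3 runs per genotype biologically independent, without tying them to animals, so p-values measure the spread between these libraries.

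Hedgehog ligands bind Patched receptors, of which PTCH1 is the main one. PTCH1 otherwise holds back SMO, a membrane protein that acts in the primary cilium. Active SMO relieves the restraint that SUFU and protein kinase A place on the GLI transcription factors, of which GLI2 is the main activator and GLI3 the main repressor. EVC and EVC2 form a complex near the ciliary base that relays the signal of SMO, and IQCE and EFCAB7 tether it there. Variants of the human EVC genes cause Ellis-van Creveld syndrome, a skeletal and heart disorder. DZIP1L is a protein of the ciliary transition zone whose human gene is linked to polycystic kidney disease.

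Evc and Evc2 are neighbours in opposite orientation on mouse chromosome 5, at chr5:37289098-37336894 on the minus strand and chr5:37338499-37425055 on the plus strand in GRCm38, the assembly that mm10 names (GENCODE M21). Their starts lie 1605 bases apart. The 250 bases before the starts that RefSeq gives them in GRCm38.p6 are shown because both genes differed between genotypes by nearly the same factor. The Evc window is chr5:37336882-37337131 on the minus strand, the Evc2 window chr5:37338228-37338477 and the Dzip1l window chr9:99629281-99629530, both on the plus strand. The Smo window, chr6:29735247-29735496 on the plus strand, is that of a member well expressed in both genotypes. Capitals mark the longest word that the Evc and Evc2 windows share, on either strand.
Evc: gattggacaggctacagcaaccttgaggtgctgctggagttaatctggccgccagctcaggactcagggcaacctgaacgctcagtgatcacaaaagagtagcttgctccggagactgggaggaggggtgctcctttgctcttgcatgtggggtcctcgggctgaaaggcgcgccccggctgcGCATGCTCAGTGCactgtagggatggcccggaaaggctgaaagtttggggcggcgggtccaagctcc
Evc2: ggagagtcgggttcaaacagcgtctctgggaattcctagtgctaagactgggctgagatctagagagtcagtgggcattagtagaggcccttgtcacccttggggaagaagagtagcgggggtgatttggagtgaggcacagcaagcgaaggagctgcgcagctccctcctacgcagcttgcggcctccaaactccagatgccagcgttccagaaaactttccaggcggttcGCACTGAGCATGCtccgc
Dzip1l: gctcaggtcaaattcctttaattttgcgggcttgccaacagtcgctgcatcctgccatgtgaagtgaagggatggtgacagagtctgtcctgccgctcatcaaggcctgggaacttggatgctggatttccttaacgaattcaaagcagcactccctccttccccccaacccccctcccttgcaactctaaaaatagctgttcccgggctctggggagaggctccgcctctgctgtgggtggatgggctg
Smo: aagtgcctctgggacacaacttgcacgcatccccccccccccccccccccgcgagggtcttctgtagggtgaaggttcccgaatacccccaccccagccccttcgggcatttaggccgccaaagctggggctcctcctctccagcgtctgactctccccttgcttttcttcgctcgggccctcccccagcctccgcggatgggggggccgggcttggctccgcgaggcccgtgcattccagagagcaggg

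The shared word, GCACTGAGCATGC, is 13 bases long. It lies 6 to 18 bases before the Evc2 start in the forward direction and 55 to 67 bases before the Evc start as its reverse complement, which is the same direction on the chromosome. Of 32851 promoter windows of this length in the RefSeq table, 7 hold it on either strand (0.0213%), and these 2 are among them. The word was picked from these sequences after they were seen, so the count is a description. The GLI binding word GACCACCCA, searched on both strands, was in none of the windows of the 8 members found in the table, and in 0.225% of all windows. The E-box CACGTG was in none of them either, and in 6.02% of all windows. The Evc and Evc2 windows each hold 11 CpG dinucleotides, the first Dzip1l window 6 and the Smo window 15, beside a median of 6 over all windows. Among the other members the Ptch1, Gli3, Gli2 and Sufu windows hold 41, 34, 22 and 8. Absence of a match says only that these letters are not in the window.

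Libraries held 40462168 to 47579480 gene counts, and levels below are counts scaled by TMM library size (CPM). Asxl1, the mouse gene of the protein whose mutant form was knocked in, had 15525, 14763 and 12868 counts in ASXL1-MT-KI libraries 1 to 3. It had 8077, 7793 and 6703 counts in wild type libraries 1 to 3, and did not overlap between genotypes. Counts by gene cannot tell reads of the knocked-in form from those of the animal's own Asxl1. The progenitor markers Kit, Cd34, Gata2, Mpo, Gata1, Myb, Ctsg and Elane summed to 19017 to 20014 CPM in ASXL1-MT-KI libraries and 18439 to 20370 CPM in wild type ones, most of it Mpo. Among these 8, Myb rose (log2 fold change 0.20, edgeR adjusted p = 0.0174) and Cd34 fell (-0.31, adjusted p = 0.00449). The 6 lineage markers with a row, which the sort should remove, summed to 36.5 to 48.9 CPM in ASXL1-MT-KI and 31.2 to 49.4 CPM in wild type, and none of 3 tested passed with edgeR. Among them Cd3e had 0 counts in ASXL1-MT-KI and 3 in wild type, summed over 3 libraries, and Ms4a1 had 2 and 0, while Itgam, a myeloid integrin that made up most of the sum, had at least 1363 counts in every library. In these bulk samples, fewer cells of a type and less RNA per cell cannot be told apart. Of 13548 genes tested, 1123 rose in ASXL1-MT-KI cells (8.29%) and 1042 fell (7.69%), at an adjusted p under 0.05.

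Of the EVC complex, Evc and Evc2 were the genes picked for their rise, so that they differed between genotypes follows from the choice. Evc had 1161, 1085 and 910 counts in ASXL1-MT-KI libraries 1 to 3 and 16, 8 and 7 counts in wild type libraries 1 to 3. Scaled by library size this is 24.2, 24.0 and 21.9 CPM in ASXL1-MT-KI and 0.349, 0.174 and 0.172 CPM in wild type. Every ASXL1-MT-KI library thus stood far above every wild type library, and the spread within the mutant group was small, with a coefficient of variation of 5.35%. Evc2 had 1549, 1444 and 1404 counts in ASXL1-MT-KI and 20, 14 and 11 counts in wild type, or 32.3, 31.9 and 33.8 CPM and 0.436, 0.305 and 0.271 CPM. Its groups were as widely apart, with a coefficient of variation of 3.11% in ASXL1-MT-KI. The fitted fold change was 98.7 for Evc (log2 fold change 6.63 ± 0.18, SE) and 95.4 for Evc2 (6.58 ± 0.13).

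**Figure D1:**
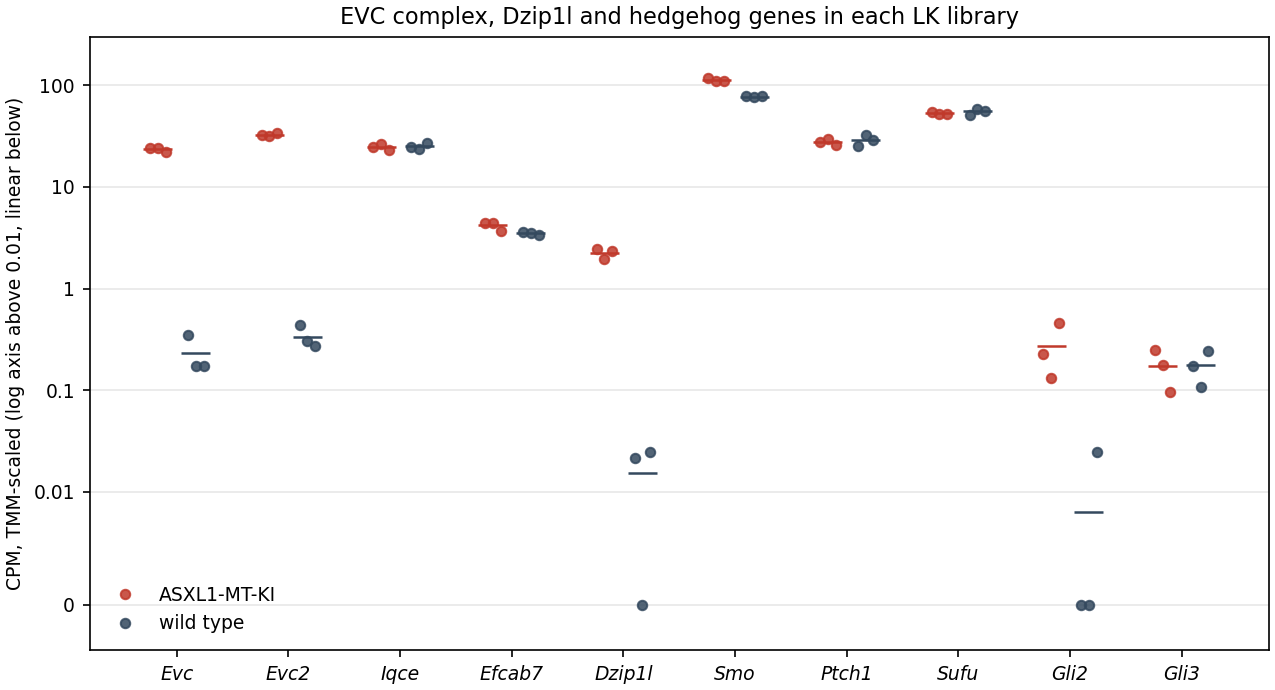
CPM of the 10 genes in each library (points, with lines at the group means), ASXL1-MT-KI in red and wild type in dark blue, on an axis that is logarithmic above 0.01 CPM. Evc, Evc2 and Dzip1l lie at 1.97 to 33.8 CPM in ASXL1-MT-KI and below 0.5 CPM in wild type, whereas Iqce, Ptch1, Sufu and Gli3 overlap between genotypes.

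The proportion between the neighbours was not what chose them, and it overlapped between genotypes. Per kilobase of annotated exon, the Evc level was 0.568, 0.570 and 0.491 times that of Evc2 in ASXL1-MT-KI libraries 1 to 3. In wild type libraries 1 to 3 the ratio was 0.606, 0.433 and 0.482, on 7 to 20 counts per gene. The means were 0.543 ± 0.0448 in ASXL1-MT-KI and 0.507 ± 0.0893 in wild type (SD, n = 3 each), and the groups overlap. The counting intervals of single wild type libraries are wide, from 0.294 to 1.23 in library 1 and from 0.159 to 1.36 in library 3.

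The 2 partners that tether EVC and EVC2 did not pass the test. Iqce, a calmodulin-binding scaffold gene at chr5:140661827-140702378, was at 24.7, 26.2 and 23.1 CPM in ASXL1-MT-KI and at 24.6, 23.4 and 27.2 CPM in wild type (log2 fold change -0.02 ± 0.08, SE, edgeR quasi-likelihood adjusted p = 0.891). These values overlap, the approximate 95% interval of the log2 fold change is -0.18 to 0.14, and the sign turns to 0.03 when total counts replace TMM scaling. Efcab7, an EF-hand gene on chromosome 4, was at 4.42, 4.45 and 3.69 CPM in ASXL1-MT-KI and at 3.64, 3.51 and 3.35 CPM in wild type. Its groups do not overlap, as was so for 18.0% of all tested genes with higher ASXL1-MT-KI values, but the difference did not pass (log2 fold change 0.26 ± 0.13, adjusted p = 0.231, interval -0.01 to 0.52). The 4 EVC complex genes stood in another order in each genotype, with Evc and Evc2 picked for their rise. Per kilobase of exon, Evc2 and Evc, at 5.60 ± 0.174 and 3.04 ± 0.162 CPM, were above Iqce at 2.05 ± 0.129 and Efcab7 at 1.86 ± 0.191 in ASXL1-MT-KI. In wild type, Iqce at 2.08 ± 0.164 and Efcab7 at 1.55 ± 0.064 were above Evc2 at 0.0578 ± 0.0149 and Evc at 0.0301 ± 0.0131 (SD, n = 3 each).

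Dzip1l, at chr9:99629496-99669256, was the weakest of the picked genes. It had 119, 89 and 97 counts in ASXL1-MT-KI libraries and 1, 0 and 1 counts in wild type libraries. That is 305 counts against 2 over the groups, 150 times as many after scaling, with bounds of 41.1 and 1243 from counting error at 95%. In CPM it reached 2.48, 1.97 and 2.34 in ASXL1-MT-KI, against 0.0218, 0 and 0.0246 in wild type. The paralog Dzip1, which like Dzip1l acts at the ciliary base, was at 1.39 ± 0.173 CPM in ASXL1-MT-KI and 1.97 ± 0.419 CPM in wild type and did not pass (log2 fold change -0.49, adjusted p = 0.153). Of the list of DZIP1 family and ciliary base partners (Dzip1, Cby1, Fam92a, Rpgrip1l, Sept2), none of 5 passed with edgeR, DESeq2 or limma-voom, and at an unadjusted p under 0.05 none was higher and 1 lower, beside 16.2% and 14.2% of all tested genes. Sept2, at 172 CPM in ASXL1-MT-KI and 169 CPM in wild type, matched no gene length, and among the other 4 the best expressed per length were Cby1, a basal body gene, at 18.9 CPM per kilobase in ASXL1-MT-KI and 17 in wild type, and Fam92a, which encodes a partner of the Cby1 protein, at 4.5 in ASXL1-MT-KI and 4.59 in wild type.

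Smo, the signal transducer of the pathway at chr6:29735503-29761365, was the member listed by role that rose. It had 5711, 5026 and 4617 counts in ASXL1-MT-KI and 3576, 3515 and 3163 counts in wild type. The CPM values were 119, 111 and 111 in ASXL1-MT-KI and 77.9, 76.7 and 77.9 in wild type, with no overlap and little spread within either group. The rise was 1.47-fold (log2 fold change 0.55 ± 0.049, edgeR quasi-likelihood adjusted p = 1.7e-04). It passed in all 14 alternatives tried, with log2 fold changes of 0.52 to 0.61 and adjusted p of at most 0.00212. Of the 10 members, 8 passed the filter on low counts, Evc and Dzip1l only through their ASXL1-MT-KI libraries. Among the 5 of these that were listed by role, 1 rose and 0 fell in edgeR, DESeq2 and limma-voom alike. The shares of all tested genes with edgeR were 8.29% and 7.69%. At an unadjusted edgeR p under 0.05 the counts were also 1 and 0, beside 16.2% and 14.2% of all tested genes.

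The receptor and the brake of the pathway did not pass the test. Ptch1, the receptor gene and itself a target of the pathway (chr13:63508328-63573598), was at 27.7, 29.6 and 25.7 CPM in ASXL1-MT-KI and at 25.1, 32.7 and 28.8 CPM in wild type (log2 fold change -0.06 ± 0.10, adjusted p = 0.734, interval -0.26 to 0.13). The ASXL1-MT-KI values lie inside the wild type range, and without wild type replicate 2, the highest library, the log2 fold change was 0.04. Sufu, which encodes the GLI-binding inhibitor, was at 55.2, 52.7 and 52.1 CPM in ASXL1-MT-KI and at 51.2, 58.7 and 56.2 CPM in wild type (log2 fold change -0.05 ± 0.062, adjusted p = 0.608, interval -0.18 to 0.07). Its groups overlap too. A change of more than about 1.2-fold in either direction lies outside each of these intervals.

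The GLI genes were near the limit of detection. Gli2, the main activator, had 11, 6 and 19 counts in ASXL1-MT-KI libraries 1 to 3 and 0, 0 and 1 counts in wild type libraries. The groups do not overlap, and the scaled ratio of 36 counts to 1 is 35.4, with counting error allowing 5.96 to 1436. It was too low for the main test, which needs about 10 counts in each of 3 libraries. With no filter on low counts it was called higher (log2 fold change 4.71 ± 0.95, edgeR adjusted p = 0.00308). Leaving out 1 library could bring Gli2 above the filter only through its ASXL1-MT-KI counts, so no call from those fits is given. Gli3 had 12, 8 and 4 counts in ASXL1-MT-KI and 8, 5 and 10 counts in wild type, which overlap, and their scaled ratio was 1.03, with counting error allowing 0.554 to 1.9. A noncoding transcript on the other strand shares 188 exon bases with Gli3, and reads of the pair cannot be told apart without strand.

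Levels per length put these genes in perspective. In ASXL1-MT-KI the order per kilobase of exon was Smo, Sufu, Evc2, Evc, Iqce, Ptch1, Efcab7, Dzip1l, Gli2 and Gli3, from 20.3 ± 0.798 CPM per kilobase for Smo to 0.0182 ± 0.00801 for Gli3. In wild type it was Smo, Sufu, Iqce, Ptch1, Efcab7, Evc2, Evc, Gli3, Dzip1l and Gli2, from 13.8 ± 0.13 to 0.0012 ± 0.00207 CPM per kilobase. Adjacent genes whose library values overlapped were Iqce and Ptch1, Ptch1 and Efcab7, and Gli2 and Gli3 in ASXL1-MT-KI. In wild type they were Iqce and Ptch1, Evc and Gli3, and Dzip1l and Gli2. The order was the same per kilobase of the longest transcript. Evc2 in ASXL1-MT-KI thus lay between Sufu and Iqce, and in wild type below Efcab7.

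The rest of the pathway was described with 6 lists that hold 70 genes in all, of which 69 had a row and 56 were tested. Across them 4 genes rose and 5 fell, against shares of 8.29% and 7.69% of all tested genes, and the median log2 fold change was -0.04, beside 0.00 for all genes. With the replicate number as a block 6 rose and 10 fell, beside 16.7% and 13.8% of all tested genes (30.5% in either direction). The falls numbered 3 without ASXL1-MT-KI replicate 2 or without wild type replicate 1.

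**Figure D2:**
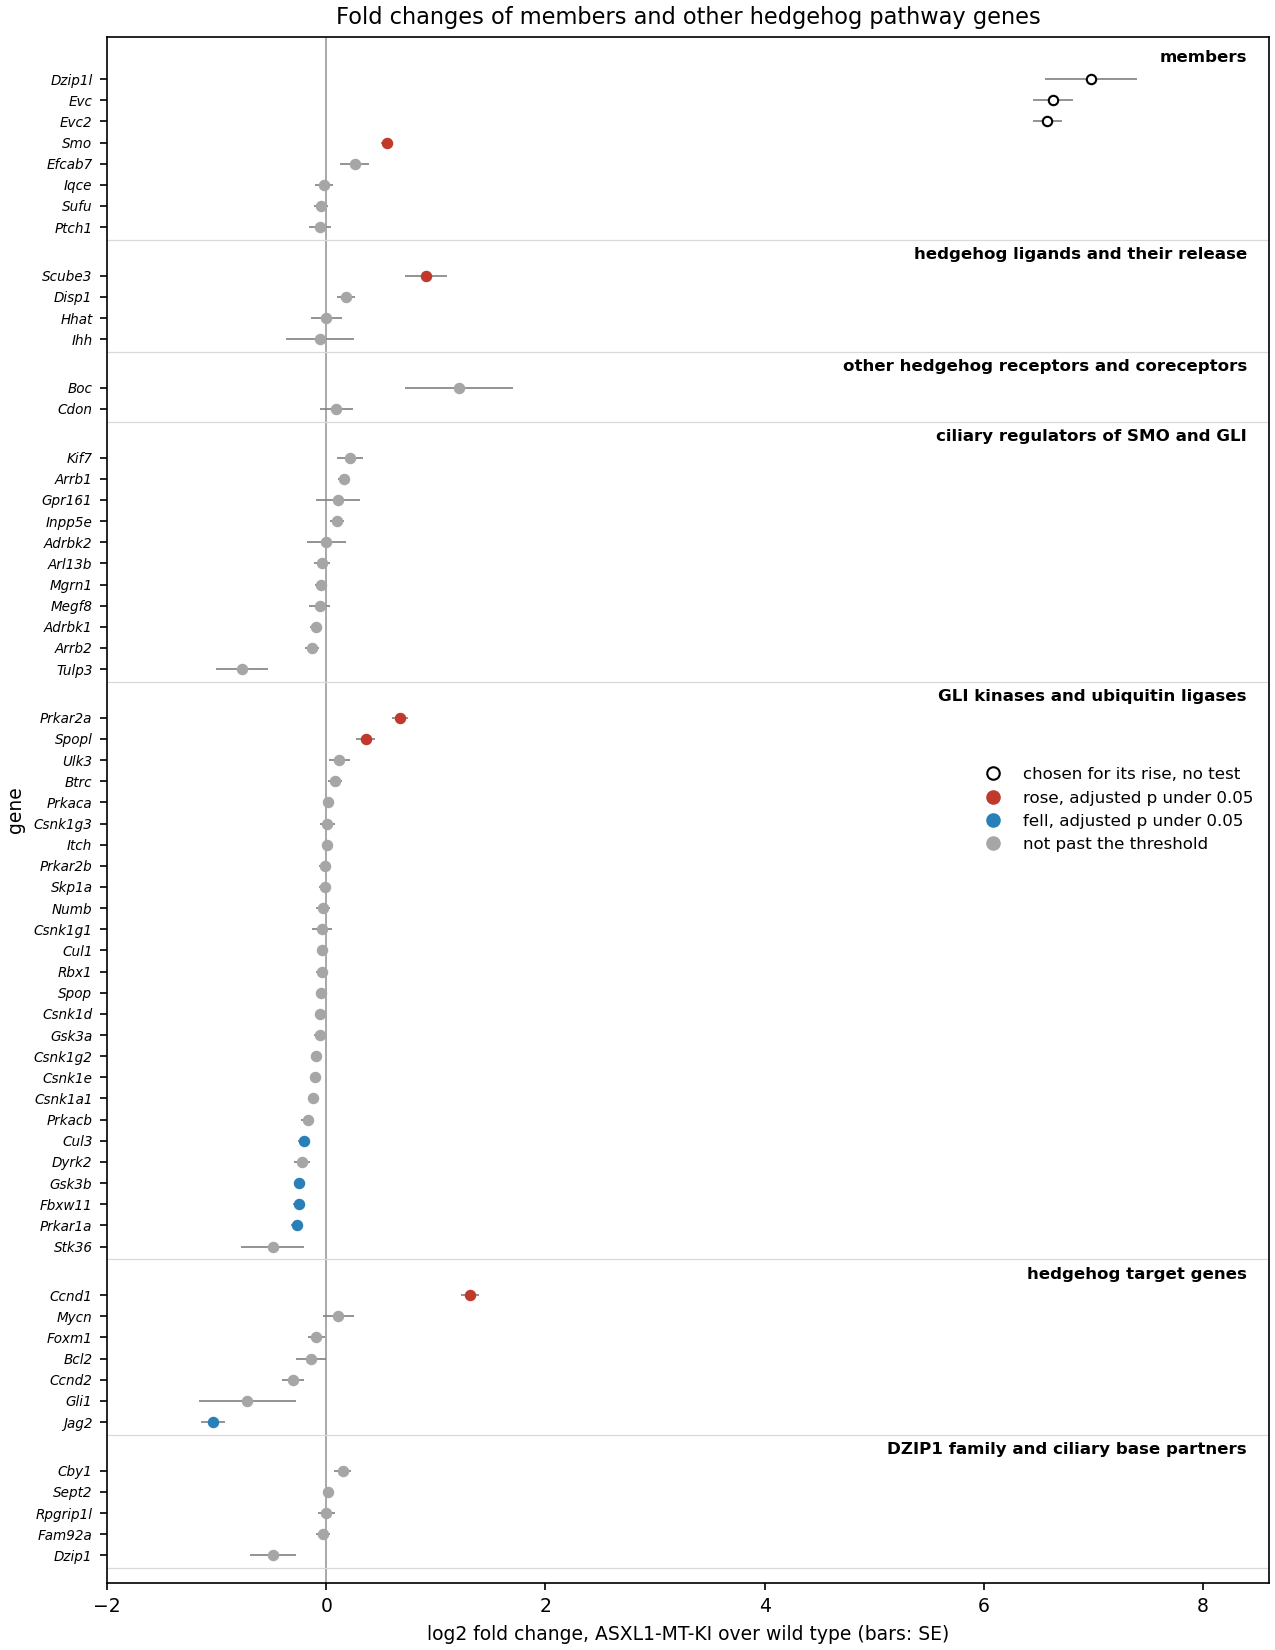
Log2 fold change of ASXL1-MT-KI over wild type for the 8 members tested and for other pathway genes tested, by list, with bars of 1 SE. Open circles are Evc, Evc2 and Dzip1l, which lie between 6.58 and 6.98, red marks rises and blue falls past an adjusted p of 0.05, and most of the other genes sit close to 0.

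The ligands were not detected or scarce. Shh and Dhh had 0 counts in every library, and Ihh, the Indian hedgehog gene, had 16, 17 and 11 counts in ASXL1-MT-KI and 14, 17 and 14 in wild type (adjusted p = 0.923). For Shh and Dhh, a count of 0 allows up to 3 counts over a group. Of 4 tested genes in the ligand and release list, 1 rose and none fell, in edgeR, DESeq2 and limma-voom and at an unadjusted p under 0.05 alike. With edgeR 8.29% of all tested genes rose and 7.69% fell, or 16.2% and 14.2% at the unadjusted p. The riser was Scube3, whose secreted protein belongs to a family that helps release ligand. Scube3 was at 2.56, 2.48 and 2.84 CPM in ASXL1-MT-KI and at 1.2, 1.26 and 1.75 CPM in wild type. The groups do not overlap (log2 fold change 0.91 ± 0.19, adjusted p = 0.0121), but the call was lost without wild type replicate 1 (adjusted p = 0.0582).

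None of the 3 tested genes among the other receptors and coreceptors passed with edgeR, DESeq2 or limma-voom. At an unadjusted edgeR p under 0.05, 1 was higher and none lower, beside 16.2% and 14.2% of all tested genes. Boc, a coreceptor gene that promotes signalling, had 94, 82 and 18 counts in ASXL1-MT-KI libraries 1 to 3 and 32, 27 and 22 counts in wild type libraries 1 to 3. ASXL1-MT-KI libraries 1 and 2 were high, and library 3 was below all wild type libraries (log2 fold change 1.21 ± 0.49, adjusted p = 0.142). It passed with the block (adjusted p = 0.0227), on omitting ASXL1-MT-KI replicate 3 (1.62 ± 0.24, adjusted p = 0.00267) and with number 3 of both groups left out (adjusted p = 0.00209), the last a choice made after seeing the data. Cdon, the related coreceptor gene, was at 2.99 ± 0.21 CPM in ASXL1-MT-KI and 2.80 ± 0.257 CPM in wild type (adjusted p = 0.72).

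**Figure D3:**
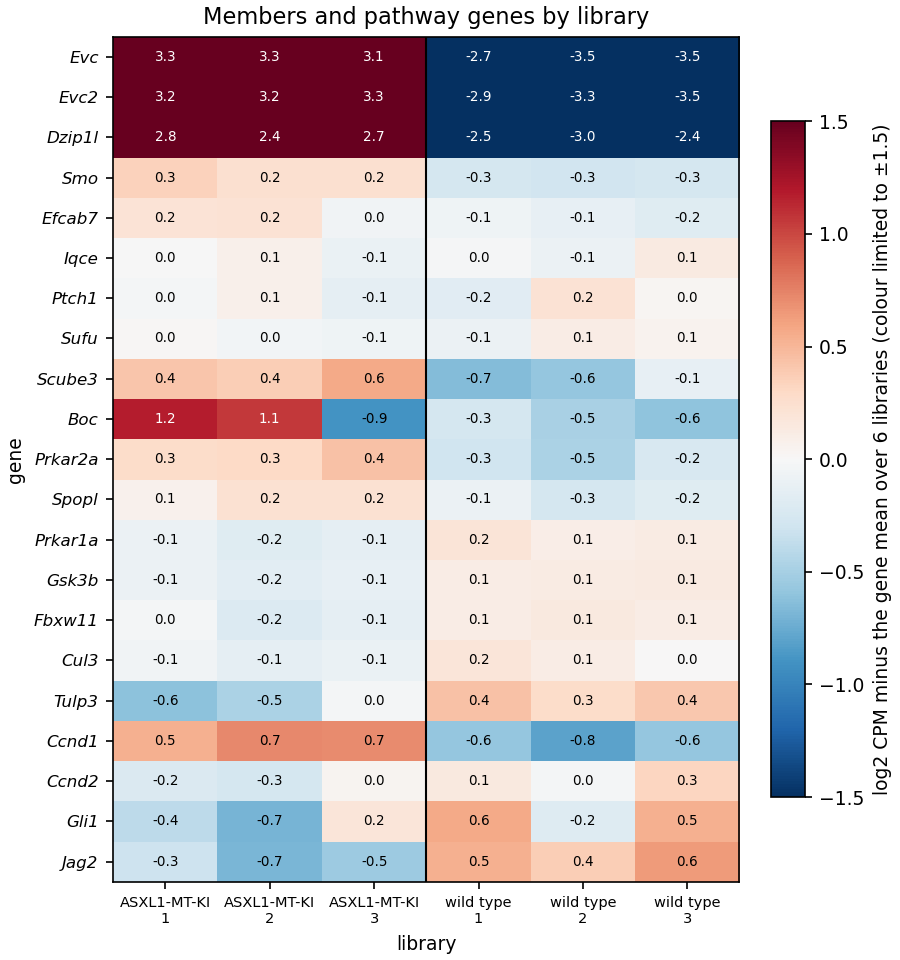
Log2 CPM of 8 members and 13 pathway genes in each library, less the gene's mean over the 6 libraries, with red above and blue below that mean and the colour limited to ±1.5. Evc, Evc2 and Dzip1l, picked for their rise, split the libraries by genotype. Boc is high, at 1.17 and 1.06, in ASXL1-MT-KI libraries 1 and 2 and low, at -0.89, in library 3.

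Of 11 regulators of SMO and GLI in the cilium, none passed with edgeR, DESeq2 or limma-voom. At an unadjusted edgeR p under 0.05, 1 was higher and 1 lower, beside 16.2% and 14.2% of all tested genes. Adrbk1 and Adrbk2 matched no gene length, and among the other 9 the most abundant per length were the arrestin genes Arrb2, at 24.3 CPM per kilobase in ASXL1-MT-KI and 26.6 in wild type, and Arrb1, at 15.7 in ASXL1-MT-KI and 14.1 in wild type. Arrb1 was called higher with the block (adjusted p = 0.0132), with total counts (adjusted p = 0.0318) and with number 3 of both groups left out (adjusted p = 0.0218). Tulp3, which carries receptors into the cilium and was named after its values were seen, had 24, 25 and 32 counts in ASXL1-MT-KI and 50, 44 and 43 counts in wild type. Its groups do not overlap, as was so for 17.2% of all tested genes with lower ASXL1-MT-KI values. Tulp3 did not pass in the full fit (log2 fold change -0.77 ± 0.24, adjusted p = 0.0597). It was called lower with the block (adjusted p = 0.0261), on omitting ASXL1-MT-KI replicate 3 (adjusted p = 0.0421) and with number 3 of both groups left out (adjusted p = 0.0392). With the block 16.7% of all tested genes rose and 13.8% fell. Kif7, a kinesin that organizes the ciliary tip, was likewise named after its values were seen. It was called higher only with number 3 of both groups left out (adjusted p = 0.034).

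Among 26 kinase and ubiquitin ligase genes that act on GLI proteins, 2 rose and 4 fell, beside 8.29% and 7.69% of all tested genes. With the block 2 rose and 7 fell, beside 16.7% and 13.8% of all tested genes. Prkar2a and Prkar1a, which encode regulatory subunits of protein kinase A, moved in opposite directions. Prkar2a rose to 70.2, 71.1 and 78.6 CPM in ASXL1-MT-KI, against 46.9, 41.8 and 49.1 CPM in wild type (log2 fold change 0.67 ± 0.073, adjusted p = 4.8e-04). Prkar1a fell to 327 ± 11 CPM in ASXL1-MT-KI, against 395 ± 13.2 CPM in wild type (SD, n = 3 each; edgeR log2 fold change -0.27 ± 0.048, adjusted p = 0.00513). Neither gene overlaps between genotypes. The catalytic subunit gene Prkaca was at 68.9 ± 2.73 CPM in ASXL1-MT-KI and 68.0 ± 1.09 CPM in wild type (adjusted p = 0.838), and Prkacb, with a log2 fold change of -0.17, passed with the block (adjusted p = 0.00654) and on omitting wild type replicate 2 (adjusted p = 0.038) but not in the full fit (adjusted p = 0.0729).

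Gsk3b, a kinase gene whose protein phosphorylates GLI proteins ahead of their processing, fell by 0.25 on the log2 scale (adjusted p = 0.00627), and Fbxw11, an adaptor of the SCF ubiquitin ligase, fell by 0.25 (adjusted p = 0.0154). Fbxw11 no longer passed on omitting ASXL1-MT-KI replicate 2 (adjusted p = 0.0738) or wild type replicate 1 (adjusted p = 0.055). Spopl, a cullin 3 adaptor gene, rose by 0.36 ± 0.089 (adjusted p = 0.0245), but it no longer passed on omitting ASXL1-MT-KI replicate 2 or 3, wild type replicate 2 or number 3 of both groups, with adjusted p up to 0.104. Cul3 itself fell by 0.20 (adjusted p = 0.038), a call lost with total counts (adjusted p = 0.0725) and when any library other than wild type replicate 3 was left out (adjusted p up to 0.147).

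Hedgehog target genes made up a list of 8 tested genes, of which 1 rose and 1 fell, beside 8.29% and 7.69% of all tested genes. With the block 1 rose and 2 fell, beside 16.7% and 13.8%. These counts are too small to read against such shares. Ccnd1, which encodes cyclin D1, was at 60.4, 68.7 and 67.9 CPM in ASXL1-MT-KI and at 27.8, 23.9 and 28.0 CPM in wild type (log2 fold change 1.31 ± 0.08, adjusted p = 2.4e-05). Jag2, a Notch ligand gene, was at 24, 18.6 and 20.3 CPM in ASXL1-MT-KI and at 43.2, 38.4 and 46.5 CPM in wild type (log2 fold change -1.03 ± 0.11, adjusted p = 4.2e-04). For both genes all ASXL1-MT-KI libraries lie on one side of all wild type libraries. Ccnd2, named after its values were seen, had a log2 fold change of -0.30 and did not pass in the full fit (adjusted p = 0.0959). It was called lower with the block (adjusted p = 5.9e-05), with DESeq2 (adjusted p = 0.0218), on omitting ASXL1-MT-KI replicate 3 (adjusted p = 0.0228) or wild type replicate 2 (adjusted p = 0.0409), and with number 3 of both groups left out (adjusted p = 0.00869).

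Other than Ptch1, described above, the feedback genes of the pathway were scarce. Gli1, the target that amplifies the signal, had 7, 5 and 10 counts in ASXL1-MT-KI and 15, 8 and 13 counts in wild type, which overlap (log2 fold change -0.72 ± 0.44, adjusted p = 0.309, interval -1.59 to 0.14). Hhip, which encodes a ligand-binding inhibitor, had 1 count per genotype over 3 libraries. A rise of Gli1 larger than a log2 fold change of 0.14 lies outside its interval, but that interval is approximate and somewhat too narrow. For Hhip these counts leave a wide range.

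Genes near Evc, Evc2 and Dzip1l were examined to see whether a wider stretch of chromosome differed. Within 500000 bases of the starts of Evc and Evc2 the table has 7 other genes, 1 of them tested, and within the same distance of Dzip1l it has 12, 5 of them tested. None of the 6 tested genes passed with edgeR, DESeq2 or limma-voom, and 2 were higher and none lower at an unadjusted p under 0.05, beside 16.2% and 14.2% of all tested genes. Wfs1, an endoplasmic reticulum gene 348 kb from Evc, was at 4.54 ± 0.711 CPM in ASXL1-MT-KI and 3.53 ± 0.41 CPM in wild type (adjusted p = 0.161, or 0.0441 with the block). Mras, a small GTPase gene 192 kb from Dzip1l, was at 6.41 ± 0.145 CPM in ASXL1-MT-KI and 5.02 ± 0.586 CPM in wild type (adjusted p = 0.0808, or 0.0263 with the block). With the block 16.7% of all tested genes rose.

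The nearest tested genes to Dzip1l were at similar levels in both genotypes. Dbr1, the lariat debranching enzyme gene 53.7 kb away, was at 39.5 ± 0.593 CPM in ASXL1-MT-KI and 38.6 ± 0.643 CPM in wild type (adjusted p = 0.732), and Armc8, 60.6 kb away, at 41.4 ± 0.824 CPM in ASXL1-MT-KI and 40.2 ± 1.59 CPM in wild type (adjusted p = 0.672). Cep70 (adjusted p = 0.459) and Pik3cb (adjusted p = 0.543) did not pass. A4gnt, 17 kb from Dzip1l, had 0 counts in every library. On the Evc side, Crmp1, which overlaps the Evc gene without sharing exon bases, had 1, 0 and 2 counts in ASXL1-MT-KI and 0, 0 and 2 in wild type. Stk32b, a kinase gene that ends 21.8 kb beyond the end of Evc2 and was named after its values were seen, had 6, 10 and 5 counts in ASXL1-MT-KI and 0 counts in every wild type library. It was too low to be tested.

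**Figure D4:**
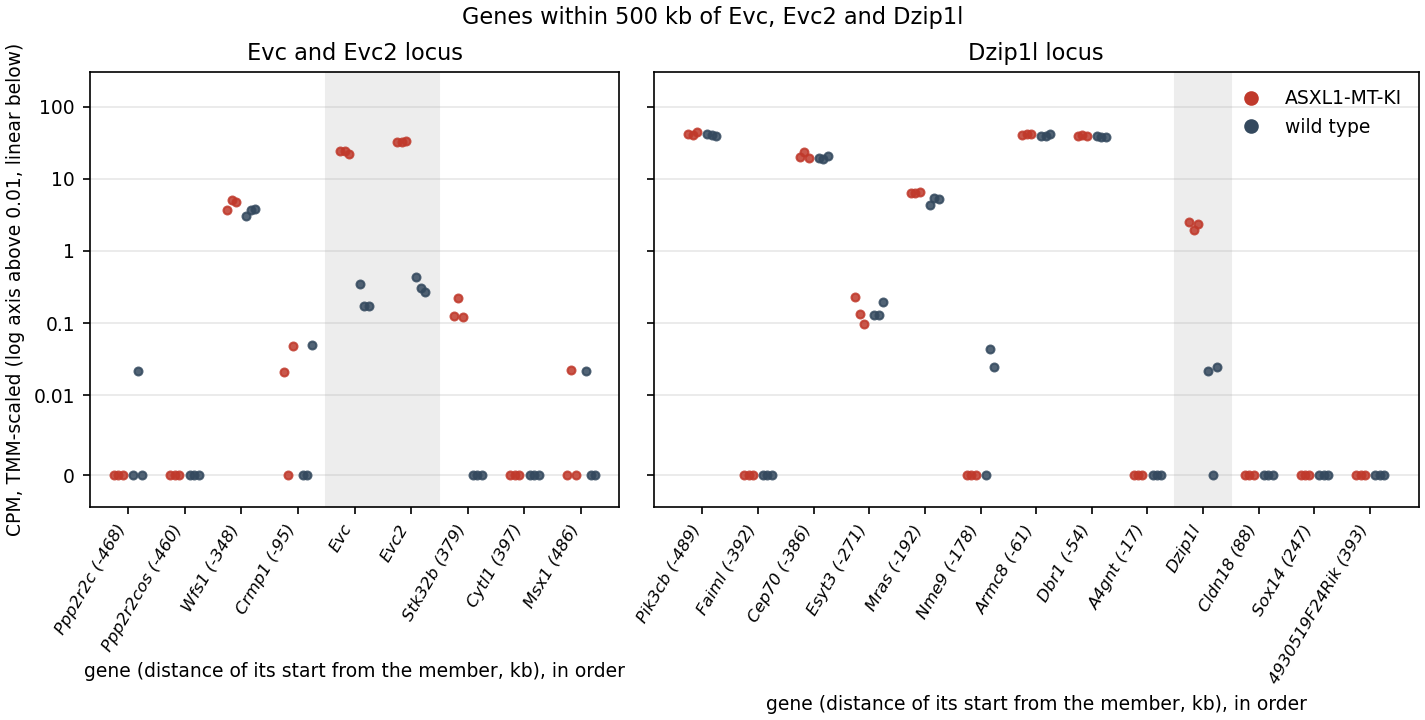
CPM in each library of the genes whose start lies within 500000 bases of Evc or Evc2 (left) and of Dzip1l (right), in order along the chromosome, ASXL1-MT-KI in red and wild type in dark blue, with the members shaded and distances in kb in brackets. The members, picked for their rise, differ widely between genotypes, and Stk32b is above 0 only in ASXL1-MT-KI. Dbr1 and Armc8, at most 60.6 kb from Dzip1l, lie between 38.1 and 42.3 CPM in every library.

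By the distance between centred log2 CPM values over the 6 libraries, the 5 genes nearest to the mean of Evc and Evc2 were Sva, Dzip1l, Lgi2, 1700003E16Rik and Adgrb1, at 1.38 to 2.71. The 5 nearest to Dzip1l were Sva, Lgi2, 1700003E16Rik, Adgrb1 and Evc2, at 0.58 to 1.56. All are genes with few or no wild type counts, and distances at such levels depend on the prior count of 2 used for the logarithm. Sva had 89, 85 and 80 counts in ASXL1-MT-KI and 0 in every wild type library, and Adgrb1, an adhesion receptor gene, had 70, 57 and 75 counts in ASXL1-MT-KI and 3, 1 and 1 in wild type. Sva, 1700003E16Rik and Smo are on chromosome 6, Lgi2 like Evc and Evc2 on chromosome 5, and Adgrb1 on chromosome 15.

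Markers of non-haematopoietic bone marrow cells, many of which carry primary cilia, were read beside Evc, Evc2 and Dzip1l. The 10 stroma markers summed to 29.1 to 32.0 CPM in ASXL1-MT-KI libraries and 34.5 to 41.0 CPM in wild type libraries, most of it Pdgfrb, none of the 4 tested passed, and Col3a1 was at 0 throughout. Pdgfra and Lepr had at most 6 counts in any library. Col1a1 had 106 counts in wild type library 1 and at most 7 in any other library. Col1a2 had 151 counts in wild type library 1 and 39 to 58 in the others, and Cxcl12 had 9 to 53. The 8 osteoblast and chondrocyte markers summed to 80.4 to 86.8 CPM in ASXL1-MT-KI and 115 to 140 CPM in wild type, nearly all of it Runx2. Runx2, a bone transcription factor gene, fell by 0.62 on the log2 scale (edgeR adjusted p = 6.2e-04), so the sum says little about the rest of the list. Summed over 3 libraries, Sp7 had 17 counts in ASXL1-MT-KI and 11 in wild type, Bglap 7 and 8, and Ibsp 5 and 9. Col2a1 had 11 and 13, Acan 0 and 1, and Sox9 5 and 27. Alpl, an osteoblast and stem cell phosphatase gene, had 18, 19 and 20 counts in ASXL1-MT-KI and 6, 3 and 5 in wild type (log2 fold change 1.97 ± 0.38). It passed the filter on low counts only through its ASXL1-MT-KI libraries, so no call is given. The part of these cells in the results above was not tested. Of 5 endothelial markers 1 fell and none rose, beside 7.69% and 8.29% of all tested genes. Marker lists of this size are too small to read against such shares. The endothelial sums were 101 to 104 CPM in ASXL1-MT-KI and 109 to 125 CPM in wild type. The 6 markers of motile cilia summed to 2.81 to 3.43 CPM in ASXL1-MT-KI and 1.88 to 2.83 CPM in wild type, which meet at their ends, and none of 3 tested passed with edgeR. Most of the sum was Rsph1 and Ccdc39. Rsph1 was higher in ASXL1-MT-KI without overlap, as was so for 18.0% of all tested genes, while Ccdc39 and Foxj1 overlapped. Summed over 3 libraries, Tekt1 had 13 counts in ASXL1-MT-KI and 1 in wild type, Dnah5 1 and 0, and Dnah9 2 and 2.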

How the data were processed

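RNA sequencing of LK cells gave 3 ASXL1-MT-KI and 3 wild type libraries. The submitters' processing notes name HISAT2 2.0.4, an aligner, and the build mm10. The sources used here do not name the counting tool or say how it handled strand, annotation or reads shared between genes. The NEBNext Ultra kit in the labels is not a directional one. The deposited file holds raw counts by gene symbol, and 6240 of 24421 rows are 0 throughout. Every row names a gene. Column names carry the genotype and replicate number of each sample.

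The test was edgeR 4.0.16 in R 4.3.3: filterByExpr with a minimum of 10 counts, TMM factors, the quasi-likelihood F test (robust) on genotype, and Benjamini-Hochberg adjustment over 13548 genes at 0.05. The between-library biological coefficient of variation was 8.78%. CPM values are TMM-scaled, and standard errors were derived from the estimate and its F statistic. The 95% intervals of log2 fold changes use a normal approximation, which makes them narrower than the quasi-likelihood test implies. Counting intervals are exact conditional binomial intervals on summed counts at 95% and, like the floor of 3 counts, cover counting error only. Levels per length use the union of GENCODE M21 exons, and 23334 symbols matched a single gene. Promoters come from RefSeq on GRCm38.p6, with entries for 8 of the 10 members.

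Members, lists and tests were chosen with earlier results of these data known. The naming rule took all members, up to 4 called genes of each list by p (or the 2 most abundant), every tested neighbour and the 5 genes nearest in pattern. Shh, Dhh, Ihh, Hhip, Gli1, Dzip1, Prkaca, Prkacb, Spopl, Cul3, A4gnt and Crmp1 fall outside it. So do genes said to be named after their values were seen. The values of 1 listed gene are not reported here.

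Replicate numbers come from the sample titles, with no label tying them to a litter. Deviations from the group means correlated at 0.253, 0.162 and 0.391 between same-numbered libraries, across genes. The libraries ASXL1-MT-KI 1 and wild type 2, which differ in number, correlated at 0.163. Pairing by number was thus read as possible only. The main fit leaves it out, and the fit with the block appears beside calls it alters. No libraries of a genotype agreed within sampling noise, with chi-square per degree of freedom of at least 8.32.

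On simulated counts of 13548 genes with 200 changed, the steps found 73.5% of the changes set at 1.5-fold, 87.3% at 2-fold and 95.2% at 4-fold, and 14 of 182 calls were false. Alternatives were DESeq2 size factors, total counts, DESeq2 1.42.0, limma-voom (limma 3.58.1), no filter, a stricter filter (at least 3 libraries over CPM 1), an adjusted p under 0.10, the block, each library left out, and, added after seeing the data, number 3 of both groups left out. Figures were drawn with matplotlib 3.10.9.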

Additional observations from a re-analysis of the deposited data

How the results depend on the processing

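The rise of Smo, Ccnd1 and Prkar2a and the falls of Jag2, Gsk3b and Prkar1a passed in all 14 alternatives. The fitted log2 fold change ran from 6.45 to 7.05 for Evc, from 6.43 to 6.81 for Evc2 and from 6.45 to 7.37 for Dzip1l, whose 2 wild type counts limit its precision. Counts over all genes depended on the block and on single libraries. With the replicate block 2256 genes rose, 1876 fell and 4132 were called in all, and on leaving out 1 library rises ran from 534 to 1216, falls from 587 to 1041 and all calls from 1128 to 2257. The lowest totals came on omitting wild type replicate 1 (1128), ASXL1-MT-KI replicate 2 (1143) or ASXL1-MT-KI replicate 1 (1388), and such fits have 2 libraries in an arm.

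Among members listed by role, rises numbered 2 with no filter and 1 to 2 on leaving out 1 library, the added one being Gli2, which on leaving out 1 library enters only through its ASXL1-MT-KI counts and adds nothing about the members. In the 56 other pathway genes tested, 10 fell with the replicate block, 9 at an adjusted p under 0.10 and 3 to 6 on leaving out 1 library. Over all genes the falls moved too. They numbered 1876 with the block (13.8%), 1456 at an adjusted p under 0.10 and 587 to 1041 on leaving out 1 library. Of the 6 tested genes near Evc, Evc2 and Dzip1l, 2 rose with the block and 1 at an adjusted p under 0.10. Of all 13548 tested genes, 2256 rose with the block (16.7%) and 1662 at an adjusted p under 0.10. The mean Evc to Evc2 ratio was 0.678 in ASXL1-MT-KI and 0.633 in wild type per kilobase of the longest transcript, by the construction of that length. Signs turned for Iqce, to 0.03 with total counts, 0.09 with number 3 of both groups left out, and between -0.07 and 0.04 on leaving out 1 library (0.02 on omitting ASXL1-MT-KI replicate 3, 0.04 on omitting wild type replicate 3). Ptch1 ran from -0.15 to 0.04 on leaving out 1 library, with 0.04 on omitting wild type replicate 2. Neither gene passed in any of them. Total counts in place of TMM moved the median of all genes by 0.05. The GLI word was in no member window at 250 or 300 bases. The causes were not tested.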
